A study of Mus musculus with 16 samples.

Results

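Genes of mucous neck cells and of spasmolytic polypeptide-expressing metaplasia (SPEM) were followed one by one through 16 RNA-seq libraries of mouse stomach corpus. The 10 genes, Tff2, Muc6, Gkn3, Aqp5, Cftr, Wfdc2, Clu, Cd44, Sox9 and Dmbt1, were taken by symbol from general knowledge of these cells, and all 10 were found among the 24964 gene symbols of the count table. All 10 were among the 15385 genes that passed the filter on low counts. The libraries fall into 4 groups of 4. WT-S and WT-A are from wild-type C57BL/6 mice, and TTP-S and TTP-A are from congenic C57BL/6 mice with the genotype TTPΔARE. All mice were female and 8 weeks old, and each RNA came from a 4 mm biopsy taken at the corpus lesser curvature. The treatment label of the A groups names adrenalectomy (ADX, removal of the adrenal glands) and the gastric inflammation it induces. The treatment label of the S groups names SPEM, and what the letter S stands for, or whether these mice were operated on, is not given in the labels. A and S are therefore used only as group names. The labels do not say whether each library is a separate mouse, so p-values measure the spread between these libraries.

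In the corpus gland, mucous neck cells lie between the surface and the chief cells and secrete the mucin MUC6 and the trefoil peptide TFF2, which was formerly called spasmolytic polypeptide. After loss of acid-secreting parietal cells, chief and neck cells can give rise to SPEM, a mucous lineage at the gland base that keeps neck-cell products and adds wound-associated genes such as Clu, Wfdc2, Cd44 and Sox9. Tristetraprolin (TTP, gene Zfp36) binds AU-rich elements in the 3′ untranslated region of transcripts and speeds their breakdown. In TTPΔARE mice the AU-rich element of Zfp36's own transcript is missing, and the allele is carried by all cells, not by the gastric epithelium alone.

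The libraries held 17453930 to 25849472 counts. Zfp36 was at 55.1 to 88.6 CPM (counts scaled to a common library size) in the 8 WT libraries and at 110.5 to 131 CPM in the 8 TTPΔARE libraries, so the genotype labels separated without overlap. WT-A 3 and WT-A 4 stood apart from the rest: their genes deviated from their median level along with GC content (Spearman rho across 11493 genes of 0.72 and 0.74, at most 0.30 in absolute value in the other 14 libraries). Comparisons that use WT-A were also computed without this pair. Of the corpus markers, the parietal gene Atp4a had at least 201068 counts and the chief cell gene Pgc at least 1306058, whereas Cckbr had 135 to 327 and Cpb1 15 to 55. Of 2 antral genes, Gast had 0 to 7 counts and Pdx1 35 to 180. Of 7 intestinal genes, Sis was at 0 in every library and Cdx1 and Cdx2 had at most 3 counts, while Apoa1 had 24009 to 43452 and Apoa4 2008 to 3931. Of 6 pancreatic genes, Cela1 had 317 to 791 counts and the other 5 at most 8. The 8 genes of squamous forestomach epithelium summed to between 1.27 CPM (WT-S 2) and 727 CPM (WT-A 2). Fewer cells of a type and less RNA per cell cannot be told apart in these bulk libraries.

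Between WT-A and WT-S, 4 of the 10 genes rose and none fell: Clu, Cd44, Sox9 and Dmbt1. In that comparison 9.8% of all genes tested were called higher, 8.99% lower and 18.8% in either direction, where called means an adjusted p under 0.05 in edgeR's quasi-likelihood test with Benjamini-Hochberg adjustment over all 15385 genes. The median log2 difference of the 10 was 0.75, against 0.0094 for all genes. Without the pair WT-A 3 and WT-A 4, 5 genes were called higher, the fifth being Cftr (1620 of 15597 genes in all called). The count was 8 without WT-S 1 (2983 of all genes called, against 2891 with every library) and 2 without WT-S 2 (1254 of all genes called). Between TTP-A and TTP-S, 2 of the 10 rose, Muc6 and Sox9, where 1.55% of all genes were called higher, 1.35% lower and 2.9% in either direction. The median there was 0.32, against -0.0010 for all genes. This count of 2 was 0 whenever any library but TTP-A 2 was left out (7 fits, with 60 to 211 genes called in all, against 446 with every library). It was 3 without TTP-A 2, where Dmbt1 was called lower and 937 genes were called in all.

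Between TTP-S and WT-S no gene of the 10 was called by edgeR (0.0325% of all genes called). Of the 10, 5 had an unadjusted p under 0.05, namely Muc6, Aqp5, Wfdc2, Sox9 and Dmbt1, against 7.49% of all genes. Without WT-S 1 the difference of Muc6 went from -1.36 to -0.56 and that of Aqp5 from -1.40 to -0.29. In the other comparisons, unadjusted p was under 0.05 for 6 of the 10 between WT-A and WT-S (36.5% of all genes), 5 between TTP-A and TTP-S (15.9%) and 5 between TTP-A and WT-A (27.5%). Between TTP-S and WT-S, DESeq2 called 0 of the 10 (98 of 20400 genes) and limma voom 1 (175 of 15385 genes). Between TTP-A and WT-A, Dmbt1 was lower in TTP-A and the other 9 were not called (2.3% of all genes called lower, 5.17% in either direction). There DESeq2 called 3 of the 10 lower, Dmbt1, Sox9 and Wfdc2 (1627 of 20400 genes in either direction), and limma voom also 3, Dmbt1, Sox9 and Cftr (796 of 15385). The test of whether the response to A differed between genotypes called 9 genes of 15385 (0.0585%, 0.026% in the negative direction), and Dmbt1 was among them. In the edgeR fit of all 16 libraries, each gene of the 10 called between A and S was higher in A, although the label of the S groups names SPEM.

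**Figure D1:**
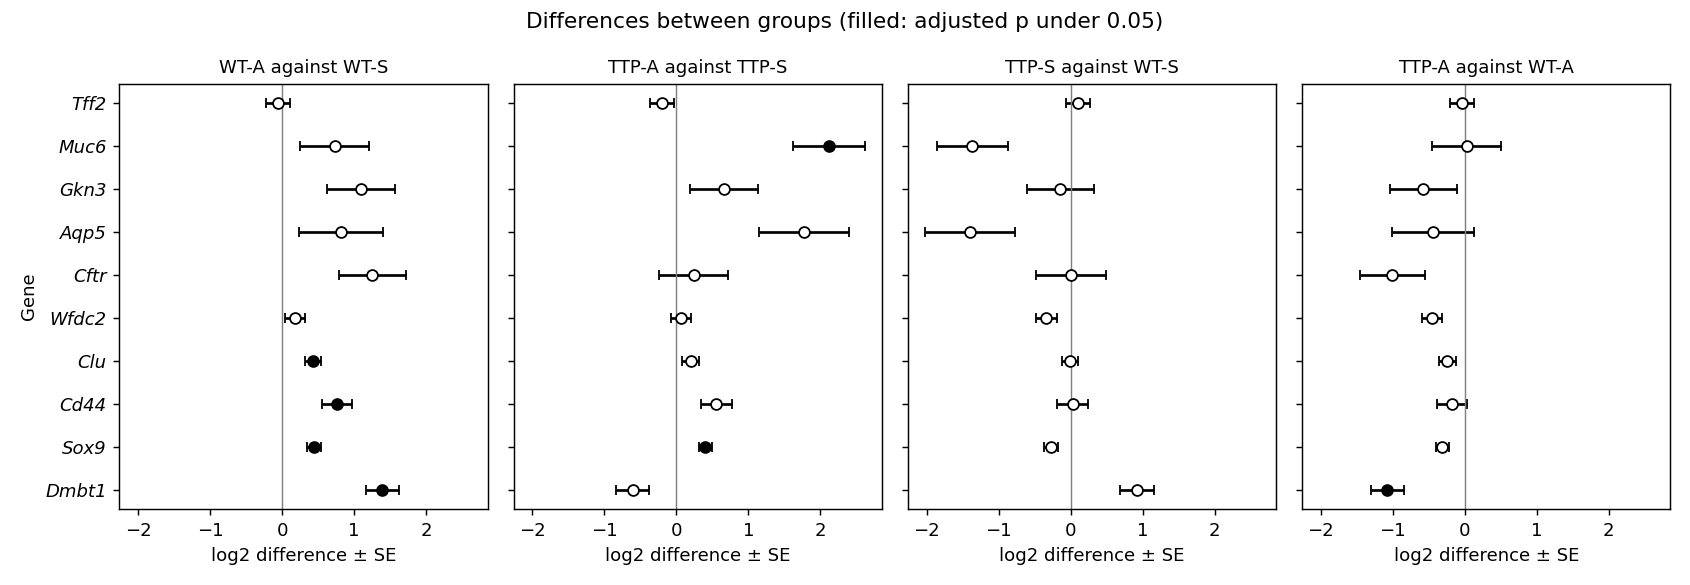
Log2 difference (x axis) of each of the 10 genes in 4 comparisons, with the standard error (SE) as bars. Filled points passed an adjusted p of 0.05: 4 genes in WT-A against WT-S, 2 in TTP-A against TTP-S, 0 in TTP-S against WT-S and 1 in TTP-A against WT-A.

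The secreted products came first. Tff2 (chr17:31141049-31144282, minus strand in GRCm38, the mm10 build) encodes the trefoil peptide that gives the lineage its name. Per kilobase of exon it was the most abundant of the 10 in every group, with a mean of 857 to 985 CPM per kb, ahead of Clu at 560 to 760 CPM per kb. In WT-S its libraries 1 to 4 were at 634, 418, 487 and 607 CPM, and in WT-A at 353, 491, 549.5 and 666. In TTP-S they were at 528, 559, 602 and 613 CPM, and in TTP-A at 486, 613, 448 and 454. Group means ran from 500.2 ± 77.1 CPM (TTP-A) to 575 ± 39.4 CPM (TTP-S; SD, n = 4 each). All 4 groups overlapped. The log2 difference of WT-A from WT-S was -0.06 with a 95% interval of -0.42 to 0.30 on 12 residual degrees of freedom, and that of TTP-A from TTP-S was -0.20 with an interval of -0.56 to 0.16. Both intervals leave out a doubling or a halving, which would be a log2 of 1 or -1. The edgeR adjusted p values were 0.817 and 0.649. Without WT-A 3 and WT-A 4, the highest Tff2 libraries of WT-A, the WT difference was -0.35 (edgeR adjusted p = 0.207).

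Muc6 (chr7:141633456-141655319, minus strand) encodes the gel-forming mucin of neck cells and behaved differently from Tff2. In WT-S it was at 2358 CPM in library 1 and at 464, 544 and 779 in libraries 2 to 4. In WT-A it was at 1560.2, 1902, 1741 and 1682 CPM. WT-A was thus tight and high, whereas WT-S held 3 low libraries and a single one above all of WT-A. In TTP-S it was at 271, 474, 405 and 460.3 CPM, and in TTP-A at 3279, 617, 1169 and 1964. TTP-S and TTP-A did not overlap. Groups of 3 of the 10 genes did not overlap in that comparison (Muc6, Aqp5 and Sox9), where 13.7% of all genes had groups that did not overlap.

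Muc6 rose 4.36-fold from TTP-S to TTP-A (log2 2.13, SE 0.50, edgeR adjusted p = 0.0352). Its call was lost in 7 of 8 fits that left out a library, with the highest adjusted p without TTP-A 1 (1.63, edgeR adjusted p = 0.15). The call was also lost with the replicate number as a block. In WT the difference was 0.73 (SE 0.48, edgeR adjusted p = 0.278), and without WT-S 1 it was 1.53 (edgeR adjusted p = 0.0182). The difference between the responses was 1.39 with a 95% interval of -0.09 to 2.88, and it was not called (edgeR adjusted p = 0.343). Without WT-S 1 it was 0.59 (edgeR adjusted p = 0.588). WT-S 1 and TTP-A 1, the highest Muc6 library of each group, also had the lowest summed chief cell markers of their groups, at 78570 against 126413 to 153390 CPM in WT-S and at 93826 against 111283 to 143707 CPM in TTP-A. In TTP-S the order differed: TTP-S 2 had the highest Muc6 level and the highest chief sum (134318 CPM), and TTP-S 1 the lowest of both (127238 CPM). The part of cell composition in the Muc6 values was not tested.

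Gkn3 (chr6:87383256-87388935, minus strand) encodes a gastrokine made by neck cells. Its 4 libraries were at 142, 26.2, 25.0 and 85.5 CPM in WT-S and at 138, 225, 126 and 103 in WT-A. In TTP-S they were at 47.3, 54.1, 77.7 and 72.6 CPM and in TTP-A at 166, 73.8, 57.1 and 100.2. WT-S 1 lay within the range of WT-A, and the other 3 WT-S libraries lay below it. In WT the A libraries were higher on average by 1.09 (SE 0.47, edgeR adjusted p = 0.107), and by 1.70 without WT-S 1 (edgeR adjusted p = 0.0183). The difference of TTP-A from TTP-S was 0.66 (SE 0.47, edgeR adjusted p = 0.581), and 0.29 without TTP-A 1 (edgeR adjusted p = 0.941).

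Muc6, Gkn3 and the water channel gene Aqp5 rose and fell together from library to library, so their promoters are shown here (RefSeq, GRCm38.p6, 250 bases before to 50 after the start, 5′ to 3′ on the gene's strand). The table held promoters for 6 of the 10 genes. Capitals mark matches on either strand. AGATAA is a motif of zinc-finger factors important in gut epithelium. TATAAA is the core promoter box that positions the polymerase. Also searched was GGGCGG, bound by Sp factors. The last were the E-box CACGTG and, by name, the palindromic glucocorticoid response element. No match overlapped another.
Muc6 promoter (chr7:141655344-141655643, minus strand): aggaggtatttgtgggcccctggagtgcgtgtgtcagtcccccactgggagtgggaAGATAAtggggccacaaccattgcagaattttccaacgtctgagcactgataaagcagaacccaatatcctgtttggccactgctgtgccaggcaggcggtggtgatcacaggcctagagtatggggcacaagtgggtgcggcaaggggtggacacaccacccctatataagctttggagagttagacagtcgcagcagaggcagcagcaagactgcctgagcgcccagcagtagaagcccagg
Gkn3 promoter (chr6:87388886-87389185, minus strand): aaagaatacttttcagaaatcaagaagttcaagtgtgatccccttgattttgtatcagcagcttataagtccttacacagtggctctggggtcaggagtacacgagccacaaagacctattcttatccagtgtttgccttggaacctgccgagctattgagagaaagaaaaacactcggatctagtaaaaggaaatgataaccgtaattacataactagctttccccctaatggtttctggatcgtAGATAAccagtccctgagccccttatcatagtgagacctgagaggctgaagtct
Aqp5 promoter (chr15:99590778-99591077, plus strand): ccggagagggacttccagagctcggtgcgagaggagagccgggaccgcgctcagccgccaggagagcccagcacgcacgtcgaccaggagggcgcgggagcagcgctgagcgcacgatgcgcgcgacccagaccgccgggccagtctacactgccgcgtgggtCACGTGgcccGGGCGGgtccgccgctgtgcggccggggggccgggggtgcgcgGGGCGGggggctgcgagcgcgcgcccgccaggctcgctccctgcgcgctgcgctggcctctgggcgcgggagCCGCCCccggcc
Muc6 and Gkn3 each held a single AGATAA, which 11.2% of 32851 promoters of 300 bases hold. Aqp5 held none of these but had 3 GGGCGG (35.7% of promoters hold at least 1) and 1 CACGTG (7.15%). None of the 3 held the exact letters TATAAA (13.6%) or the palindromic element (0.00913%). Near matches, such as tatataa in the Muc6 promoter, were not searched for, so a variant of the box is not excluded. Aqp5 had 46 CpG pairs and a GC content of 79.7%, against 6 and 56.7% in Muc6 and 5 and 42.7% in Gkn3. A match is a description of these letters only.

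Aqp5 (chr15:99590782-99594829, plus strand) was at 40.5, 5.60, 5.46 and 10.1 CPM in WT-S and at 26.5, 34.1, 24.5 and 21.9 in WT-A. In TTP-S it was at 5.63, 4.98, 5.83 and 6.64 CPM, and in TTP-A at 43.4, 8.79, 7.01 and 19.6. Its order of libraries was nearly that of Muc6, with WT-S 1 and TTP-A 1 above all others and TTP-S uniformly low. TTP-A and TTP-S did not overlap, but the difference of 1.78 (SE 0.62) was not called (edgeR adjusted p = 0.148), and it was 1.04 without TTP-A 1 (edgeR adjusted p = 0.585). In WT the difference was 0.82 (SE 0.58, edgeR adjusted p = 0.318), and it was 1.93 without WT-S 1 (edgeR adjusted p = 0.0151).

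Cftr (chr6:18170687-18322768, plus strand), the chloride channel gene mutated in cystic fibrosis, was the least abundant of the 10, with 14 to 131 counts per library. It was at 2.30, 0.594, 0.968 and 1.38 CPM in WT-S and at 4.40, 4.52, 1.37 and 1.96 in WT-A. The high pair in WT-A was WT-A 1 and WT-A 2, and the low pair was the one set apart by GC content. The Cftr transcript, at 41.2%, had the lowest GC content of the 10. Aqp5, with the highest at 64.0%, was also lowest in that pair, at 24.5 and 21.9 CPM. Its level was 26.5 CPM in WT-A 1 and 34.1 CPM in WT-A 2. The part of GC content in the Cftr values was not tested. In WT the log2 difference of Cftr was 1.25 (SE 0.46, edgeR adjusted p = 0.0674), and without WT-A 3 and WT-A 4 it was 1.79 (edgeR adjusted p = 0.0221). It was also called without WT-S 1 (1.66, edgeR adjusted p = 0.031), by the DESeq2 Wald test (adjusted p = 0.0388) and by limma voom (1.88, adjusted p = 0.00336). In TTPΔARE mice it was 0.24 (SE 0.48, edgeR adjusted p = 0.894), with groups at 1.29 ± 0.535 and 1.52 ± 0.711 CPM (SD, n = 4 each). Cftr overlaps an antisense gene and a pseudogene in the annotation, and the strand setting of the counting is not given in the sources used here.

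**Figure D2:**
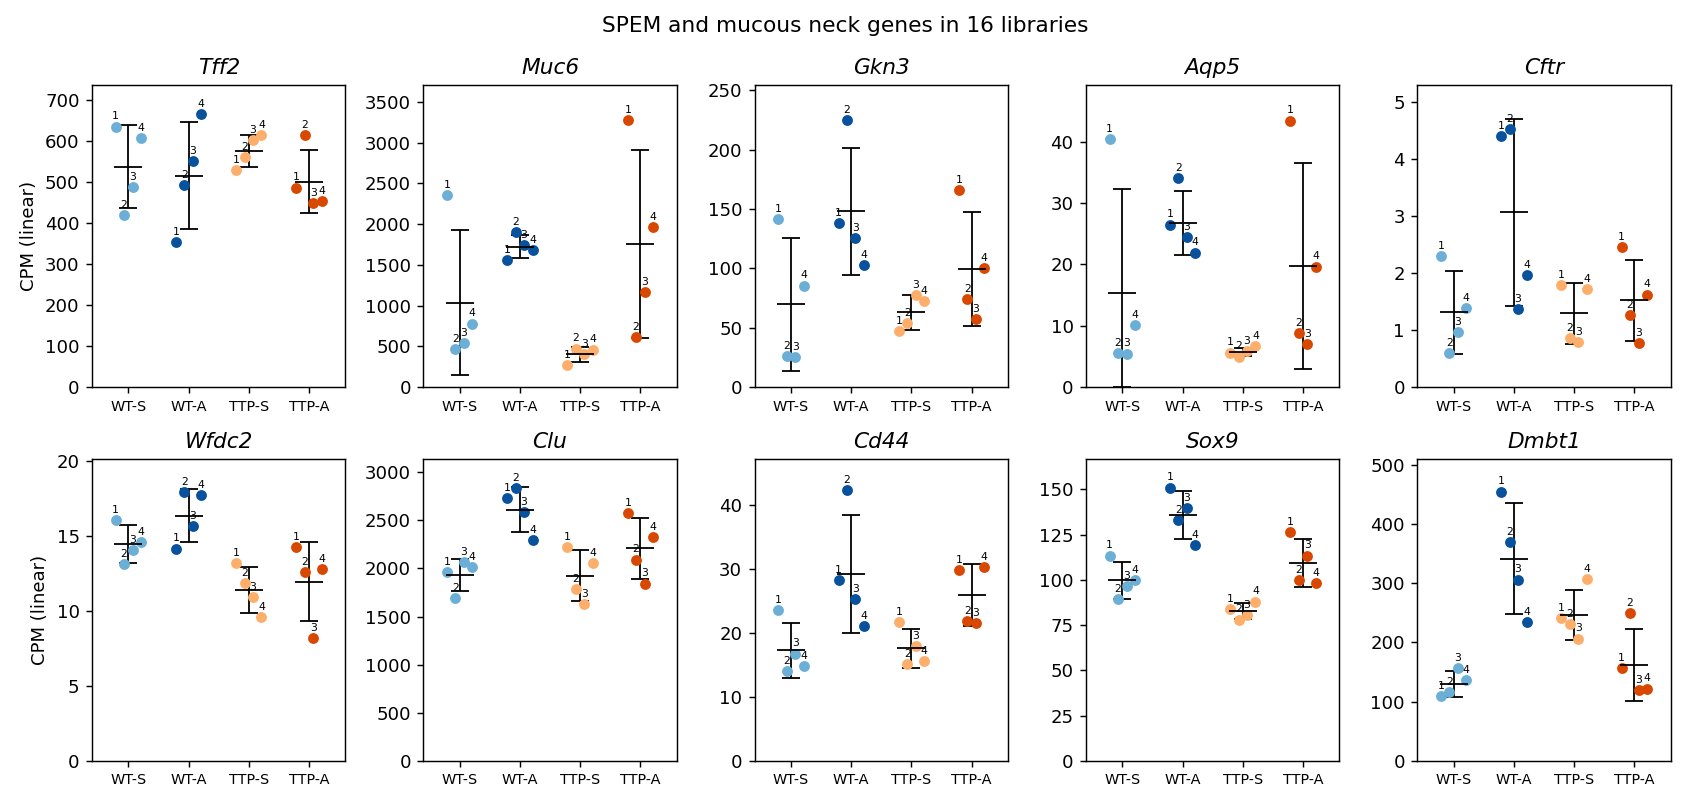
CPM (linear axis) of each of the 10 genes in each library, numbered by replicate, with the mean and SD of 4 libraries as bars, drawn no lower than 0. WT-S 1 and TTP-A 1 are the highest libraries of their groups for Muc6, Gkn3, Aqp5 and Cftr, and Tff2 is nearly level across groups.

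Wfdc2 (chr2:164562413-164568510, plus strand), which encodes a small secreted protein of the whey acidic family also known as HE4, differed little between A and S in either genotype. Its libraries were at 13.1 to 16.1 CPM in WT-S and at 14.1 to 17.9 in WT-A. They were at 13.2, 11.9, 10.9 and 9.59 CPM in TTP-S and at 14.3, 12.6, 8.16 and 12.8 in TTP-A, so all pairs of groups compared overlapped. The response to A was 0.18 in WT (95% interval -0.13 to 0.49) and 0.07 in TTPΔARE mice (-0.25 to 0.38). Both TTPΔARE groups lay below the WT group of the same letter in their means, by -0.34 in S (edgeR adjusted p = 0.605) and -0.45 in A (edgeR adjusted p = 0.069). The latter was called only without WT-A 1 among the fits that left out a library (edgeR adjusted p = 0.0277).

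Clu (chr14:65968483-65981547, plus strand) encodes clusterin, a secreted chaperone. It was at 1966, 1691, 2068 and 2015 CPM in WT-S and at 2732, 2835, 2587.5 and 2291 in WT-A, and these groups did not overlap. The same held for Sox9 and Dmbt1, making 3 of the 10 genes whose WT groups did not overlap, against 17.7% of all genes. Clu rose 1.35-fold (log2 0.43, SE 0.11, edgeR adjusted p = 0.0177), and among the fits that left out a library it lost its call without WT-S 2 (0.38, edgeR adjusted p = 0.0606). In TTP-S it was at 2222, 1789, 1633 and 2057 CPM and in TTP-A at 2578, 2093, 1842 and 2324, with a difference of 0.20 (SE 0.11, edgeR adjusted p = 0.437). Without TTP-A 1 that difference was 0.12 (edgeR adjusted p = 0.846). The difference between the responses, -0.23, had a 95% interval of -0.58 to 0.11. The summed squamous markers spanned 44.4 to 727 CPM in WT-A and 1.27 to 192 CPM in WT-S, and within groups Clu followed them with a Pearson r of 0.67 over 16 libraries. WT-A 1 had a squamous sum of 44.4 CPM and the second highest Clu level of all libraries. The part of squamous tissue in the Clu difference was not tested.

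Dmbt1 (chr7:131032053-131121630, plus strand) encodes a secreted scavenger receptor cysteine-rich protein that binds bacteria and mucins. It was at 109, 116, 157 and 137 CPM in WT-S and at 455, 370.0, 306 and 234 in WT-A. Every WT-A library was above every WT-S library. In TTP-S it was at 241, 231, 206 and 307 CPM, above all of WT-S. In TTP-A it was at 157, 249, 119 and 122 CPM, so 3 of its 4 libraries were below all of TTP-S. A was thus the higher group in WT and the group with the lower mean in TTPΔARE mice.

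Dmbt1 rose 2.63-fold in WT (log2 1.39, SE 0.23, edgeR adjusted p = 0.00226), a call kept in all 8 fits that left out a library (1.22 to 1.54). In TTPΔARE mice the difference was -0.61 (SE 0.23, edgeR adjusted p = 0.188). Among the 8 fits that left out a library it was called without TTP-A 2 alone (-0.89, edgeR adjusted p = 0.0173), and limma voom called it too (-0.77, adjusted p = 0.00649). The responses differed by -2.00 (SE 0.33, edgeR adjusted p = 0.035), and by -2.27 without WT-A 3 and WT-A 4 (edgeR adjusted p = 0.0073). This size ran from -2.29 to -1.83 over the 16 fits that left out a library, and the call was lost in 12 of them (highest edgeR adjusted p = 0.124, without TTP-S 4). The call was also lost with the replicate number as a block. Between the A groups, Dmbt1 was at a lower level in the TTPΔARE libraries, by -1.08 (SE 0.23, edgeR adjusted p = 0.0232), although the groups overlapped through WT-A 4 and TTP-A 2. That call was lost in 3 of 8 fits that left out a library (highest edgeR adjusted p = 0.078, without TTP-A 3) and when the compared groups alone were fitted (edgeR adjusted p = 0.125). Between the S groups it was higher in TTP-S by 0.92 (SE 0.23) without being called (edgeR adjusted p = 0.215). Of the 10 genes, Dmbt1 and Sox9 did not overlap between TTP-S and WT-S, where 6.74% of all genes did not. Between TTP-A and WT-A none of the 10 was free of overlap, where 12.2% of all genes were. The antral gene Pdx1 moved in the same directions without being called. It differed by 0.88 in WT, -0.79 in TTPΔARE mice and 0.75 between the S groups (SE 0.30 each). Its responses differed by -1.67 (SE 0.43, edgeR adjusted p = 0.13). Within groups, Dmbt1 had a Pearson r of 0.60 with the antral sum over 16 libraries. The part of antral tissue in the Dmbt1 values was not tested. The Dmbt1 gene overlaps Fgfr2 on the opposite strand in the annotation.

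Cd44 (chr2:102811141-102901665, minus strand) encodes the hyaluronan receptor CD44. Its variant isoforms mark SPEM, and counts per gene cannot separate them from the standard isoform, which leukocytes also carry. It was at 23.6, 14.1, 16.8 and 14.8 CPM in WT-S and at 28.4, 42.4, 25.3 and 21.1 in WT-A. Only WT-S 1 and WT-A 4 crossed. It rose 1.70-fold (log2 0.76, SE 0.21, edgeR adjusted p = 0.0224), and the call was lost in 4 of 8 fits that left out a library (highest edgeR adjusted p = 0.0741, without WT-S 2) and when the compared groups alone were fitted (edgeR adjusted p = 0.0898). In TTP-S it was at 21.7, 15.1, 18.0 and 15.6 CPM and in TTP-A at 29.9, 21.9, 21.6 and 30.4, a difference of 0.56 (SE 0.21) that was not called (edgeR adjusted p = 0.184). The summed leukocyte markers moved with these groups, from 85.3 to 96.7 CPM in WT-S and 104.9 to 152 in WT-A, and from 57.3 to 86.1 CPM in TTP-S and 90.2 to 129 in TTP-A. Of the 8 leukocyte genes, 6 were tested, and 3 were called higher in WT-A (Cd52, Coro1a and Laptm5) and these and Ptprc in TTP-A. Of all genes, 9.8% and 1.55% were called higher there. Within groups, Cd44 had a Pearson r of 0.41 with the leukocyte sum, 0.42 with the squamous sum and -0.81 with the parietal sum over 16 libraries. WT-A 2, the highest Cd44 library, also had the highest squamous sum, and without it the WT difference was 0.53 (edgeR adjusted p = 0.0507). The part of these cell types in the Cd44 values was not tested.

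Sox9 (chr11:112782224-112787760, plus strand) encodes a transcription factor of progenitor and neck cells, and it was the only 1 of the 10 called between A and S in both genotypes. It was at 113, 89.2, 96.5 and 99.8 CPM in WT-S and at 151, 133, 139.5 and 119 in WT-A. It was at 84.0, 78.0, 80.6 and 88.0 CPM in TTP-S and at 126, 99.8, 113 and 98.2 in TTP-A. Neither pair of groups overlapped. Sox9 rose 1.36-fold in WT (log2 0.44, SE 0.09, edgeR adjusted p = 0.00621) and kept its call in all 8 fits that left out a library. It rose 1.32-fold in TTPΔARE mice (log2 0.41, SE 0.09, edgeR adjusted p = 0.0297), where the call was lost in 7 of 8 such fits (highest edgeR adjusted p = 0.129, without TTP-A 1). The difference between the responses was -0.04 with a 95% interval of -0.32 to 0.25. TTPΔARE lay below WT in S by -0.27 (edgeR adjusted p = 0.444) and in A by -0.31 (edgeR adjusted p = 0.0585), and neither was called. The latter was called in 2 of 8 fits that left out a library, without TTP-A 1 (-0.39, edgeR adjusted p = 0.0413) and without WT-A 4 (-0.37, edgeR adjusted p = 0.0446).

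Because TTP binds AU-rich elements, the 3′ untranslated regions of the 10 genes were searched for the core TATTTAT on the transcript strand (GENCODE M21, the transcript with the longest coding sequence). The core occurred once in Aqp5 and Sox9, at 2 places in Cftr and at 3 in Cd44. Tff2, Muc6, Gkn3, Wfdc2, Clu and Dmbt1 held none. Among genes with a 3′ untranslated region of like length, from 0.8 to 1.25 times that of the gene, 13.5% held the core at the length of Aqp5, 44.8% at that of Sox9, 37.5% at that of Cftr and 54.3% at that of Cd44. At the lengths of the 6 genes without it, 1.38% (Muc6) to 9.59% (Dmbt1) held it. The sites of Sox9, Aqp5 and Cd44 are shown as the reference has them, with T for U and the core in capitals, since the first and last of these genes were called in the response to A and Aqp5 and Sox9 carry the longer match TTATTTATT.
Sox9 site starting at base 1250 of the 3′ untranslated region: tgtgctaaaatTATTTATtttgtaaggag
Aqp5 site starting at base 414 of the 3′ untranslated region: gagtgccatctTATTTATttctggttaag
Cd44 site starting at base 560 of the 3′ untranslated region: aagggtgatgcTATTTATctttagtaagc
Cd44 site starting at base 578 of the 3′ untranslated region: ctttagtaagcTATTTATctttgtttttg
Cd44 site starting at base 2650 of the 3′ untranslated region: cagtttttgtaTATTTATtgattgactaa
Dmbt1 was called for the difference between the responses in the fit of all 16 libraries. It held no such core in its 393 bases, at a length where 9.59% of genes hold it.

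Within groups the 10 genes did not vary alike. Muc6, Gkn3 and Aqp5 shared their deviations from the group means, with Pearson r of 0.90 between Muc6 and Aqp5, 0.89 between Gkn3 and Aqp5 and 0.80 between Muc6 and Gkn3 over 16 libraries. These are descriptions over libraries that share groups, RNA and scaling, and no test is attached. Tff2 was nearly unrelated to Muc6 (0.18), also a neck-cell product, and to Aqp5 (0.22). Dmbt1 was negatively related to Muc6 (-0.37) and unrelated to Gkn3 (-0.02). WT-S 1 was the highest library of its group for 8 of the 10 genes, and TTP-A 1 and WT-A 2 for 7 each, whereas no TTP-S library was highest for more than 4. TTP-A 3 was the lowest of its group for 8 genes and WT-S 2 for 7. Within groups, Cd44 (-0.84), Cftr (-0.77), Aqp5 (-0.76) and Gkn3 (-0.76) ran against the summed chief cell markers, as did Sox9 (-0.67), Clu (-0.63) and Muc6 (-0.59). Wfdc2 (-0.36) and Dmbt1 (-0.32) did so less closely, and Tff2 had an r of 0.12. Pgc made up most of the chief cell sum.

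**Figure D3:**
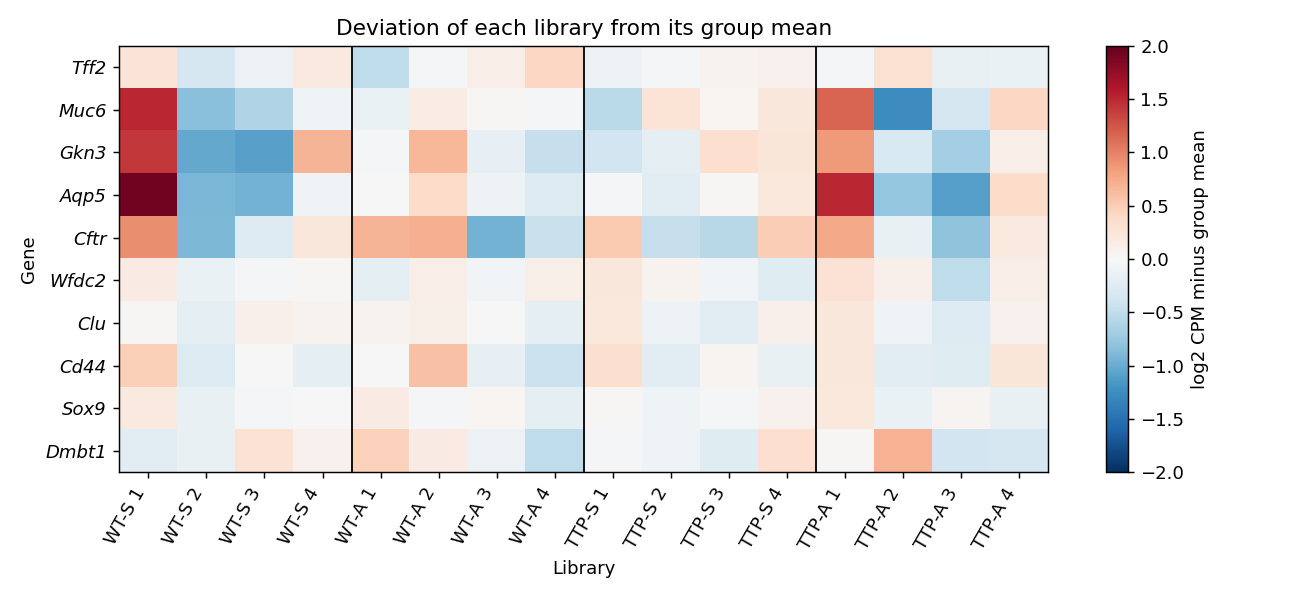
Deviation of log2 CPM from the group mean (colour) for the 10 genes (rows) in the 16 libraries (columns, groups separated by lines). WT-S 1 and TTP-A 1 are raised for Muc6, Gkn3, Aqp5 and Cftr, and no library deviates far for Clu or Sox9.

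For each of the 10 genes, the outside genes with the most similar levels over the 16 libraries were sought by Pearson r of log2 CPM among 11571 genes. Muc6 was followed most closely, by Cgref1 (r = 0.99, Spearman rho 0.97) and Spdef (r = 0.99, rho 0.96). Spdef encodes a transcription factor of mucous secretory cells. Its mean was 104 ± 3.05 CPM in WT-A and 70.4 ± 33.5 CPM in WT-S. In TTPΔARE mice it was 94.5 ± 37.2 CPM in TTP-A and 45.4 ± 2.87 CPM in TTP-S (SD, n = 4 each). Taken as deviations from the group means, the r of Muc6 and Spdef was 0.97. Aqp5 was followed by Adra2a and Col11a2 (r = 0.96 each). Gkn3 was followed by Slc16a3 and Mpzl1 (0.89 each), and Cftr by Kcnk1 (0.90) and Hmgn3 (0.85).

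Sox9 was followed by Zfp36l2, a relative of Zfp36 (r = 0.96, 0.83 within groups), and by the long non-coding RNA gene 2610035D17Rik (0.94, 0.76 within groups). That gene lies 256 kb from Sox9 on chromosome 11. Clu was followed by Birc3 (0.90) and Gdpd3 (0.88), and Cd44 by Pou2f3 (0.91) and Nectin1 (0.91). Wfdc2 was followed by Scand1 and Dnase2a (0.84 each) and Tff2 by Lmnb2 (0.86) and Tmem51 (0.82).

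Dmbt1 was followed by Krt7, a keratin of simple epithelia (r = 0.92, rho 0.94, 0.76 within groups), and then by Krt20 (0.81). Its mean was 44.1 ± 12.7 CPM in WT-A and 16.9 ± 3.44 CPM in WT-S. In TTPΔARE mice it was 19.9 ± 5.43 CPM in TTP-A and 26.3 ± 4.23 CPM in TTP-S (SD, n = 4 each). Its highest mean was thus in WT-A, and the A mean lay under the S mean in TTPΔARE mice, as for Dmbt1. The difference between its responses was -1.79 (SE 0.30, edgeR adjusted p = 0.0415). Krt7 was picked for its likeness to Dmbt1, so this value describes it and is no separate evidence.

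**Figure D4:**
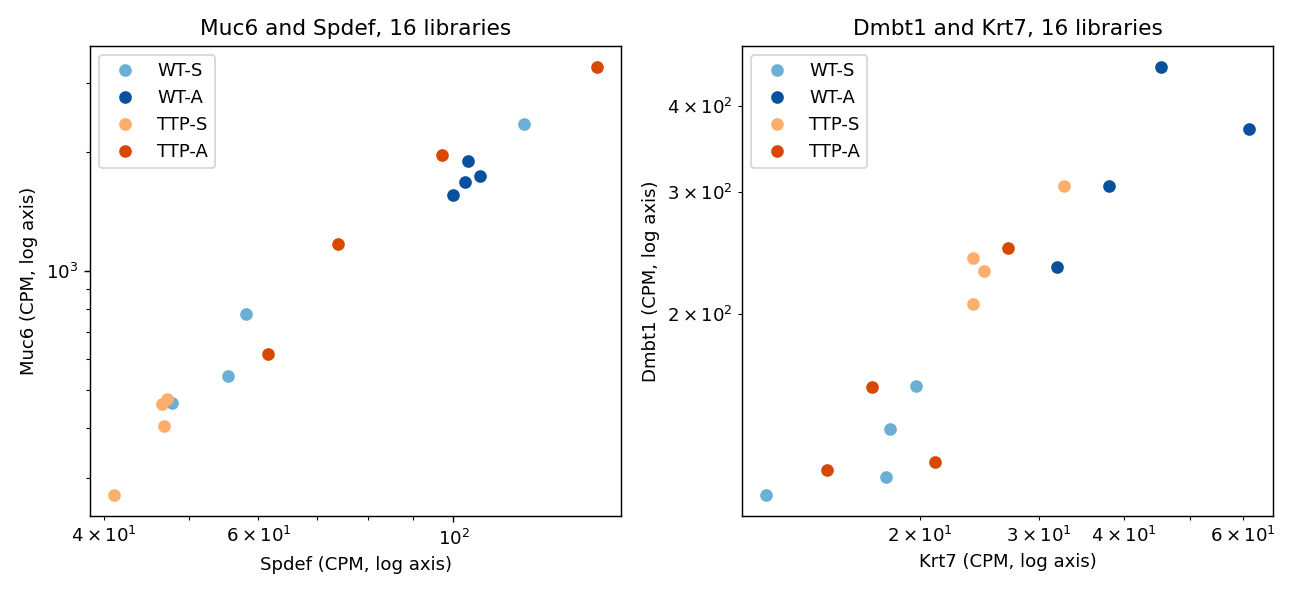
Levels in CPM (both axes logarithmic) of Muc6 against Spdef and of Dmbt1 against Krt7, with a point for each of 16 libraries coloured by group. WT-A libraries sit close together for Muc6 and Spdef, and 3 of the 4 lie above all other libraries for Krt7.

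A further 15 genes associated with SPEM in the literature were counted beside the 10. Between WT-A and WT-S, 4 of these 15 were called higher and none lower, where 9.8% of all genes were called higher. Only 8 of the 15 were above 0, and their median log2 was 0.13, against 0.0094 for all genes. Among those below 0 and not called were the trefoil gene Tff3 (-1.45, SE 0.60, edgeR adjusted p = 0.0927) and Mal2 (-0.60, SE 0.30, edgeR adjusted p = 0.153). The called genes were Gpx2, a glutathione peroxidase (1.25, SE 0.20), the membrane mucin Muc4 (1.68, SE 0.39), the bacterial pattern receptor Cd14 (0.63, SE 0.20) and the spindle gene Tacc3 (0.49, SE 0.09), with edgeR adjusted p values of 0.00179, 0.0102, 0.0364 and 0.00383. Between TTP-A and TTP-S, Gpx2 was the only 1 called (0.83, SE 0.20, edgeR adjusted p = 0.0369). None of the 15 was called between TTP-S and WT-S, and between the A groups Gpx2 was lower with TTPΔARE (-0.98, SE 0.20, edgeR adjusted p = 0.0176). The difference between the responses was called for none of the 15, that of Gpx2 being -0.43 (edgeR adjusted p = 0.45).

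Markers of the cells around the neck region moved in the same comparisons. Of 8 parietal genes, 4 fell in WT-A (Kcne2, Slc26a7, Clic6 and Aqp4) and none was called in TTP-A against TTP-S, where 8.99% and 1.35% of all genes were called lower. Of the 6 chief cell genes in the table, 3 fell in WT-A (Pgc, Gif and Chia1) and Pga5 rose, Chia1 by the most (-1.65, SE 0.25, edgeR adjusted p = 0.00147). In TTP-A against TTP-S, 1 chief cell gene rose, Bhlha15 (0.66, SE 0.16, edgeR adjusted p = 0.039), and the surface mucin Muc5ac fell (-1.04, SE 0.22, edgeR adjusted p = 0.0228). Between TTP-A and WT-A, where Dmbt1 was lower, Chia1 (1.09, SE 0.25), Bhlha15 (0.84, SE 0.16), the parietal gene Kcne2 (0.38, SE 0.10) and the mesenchymal gene Pdgfra (0.44, SE 0.10) were called higher in TTP-A. Des (-0.46, SE 0.12) and Cela1 (-0.57, SE 0.11) were called lower there. Each share of counts is relative to the rest of a biopsy, and the part of these shifts in the levels of the 10 genes was not tested.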

How the data were processed

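Gene expression was measured in 16 RNA-seq libraries. The authors deposited raw counts (whole numbers) by gene symbol, with 1 column per library. The submitters' processing notes name STAR 2.7.0f, featureCounts of Subread 1.6.4, DESeq2 and the build mm10. The annotation and strand setting are not given in the sources used here.

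Groups and replicate numbers came from the titles. The deposited counts went into edgeR 4.0.16 (R 4.3.3): filterByExpr, TMM scaling, and a quasi-likelihood fit with a mean per group over all 16 libraries. The fit was also run on simulated counts. These held no GC shift and no shift shared by genes within a library, so that run does not cover such features of the data. CPM is counts over TMM-scaled library size. SEs follow from the fold change and its F statistic. Correlations used log2 CPM with a prior count of 2. Each library counted as a replicate: in the 24 within-group pairs, chi-square divided by its degrees of freedom was 4.69 to 89.5.

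The rule named all 10 genes, Zfp36, called genes of the marker lists, and for each of the 10 the 2 other genes with the highest r among genes with a mean log2 CPM of at least 2. Lists were parietal, chief, surface mucous, antral, intestinal, pancreatic, squamous, leukocyte, mesenchymal and other SPEM-associated genes. Some list genes that were not called are also given. The genes and lists were chosen with earlier results of these data known. Alternatives were DESeq2 1.42.0 size factors or its Wald test, limma 3.58.1 voom with sample weights, other filters, fitting the compared groups alone, a replicate block, 14 libraries, and leaving out each library.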

Additional observations from a re-analysis of the deposited data

Results flagged for a closer look

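Among 40 checks for a library far from the other 3 of its group, of which chance alone gives about 1 in 20, 2 stood out. Both were WT-S 1, with Muc6 at 2358 CPM (next library 779 CPM) and Aqp5 at 40.5 CPM (next library 10.1 CPM).

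The response of Dmbt1 to A differed between the genotypes, by a log2 of -2.00 (edgeR adjusted p = 0.035). It was higher in 4 of 4 WT-A libraries than in any WT-S library, and lower in 3 of 4 TTP-A libraries than in any TTP-S library.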

How the results depend on the processing

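Of 390 single-gene values under other settings, 358 kept their direction and side of the threshold, 4 lost the call, 18 gained it and 10 changed sign. Of 480 such values without 1 library, these numbers were 404, 34, 8 and 34. No called value changed sign. With limma voom, 7 (WT-A against WT-S), 5 (TTP-A against TTP-S), 1 (TTP-S against WT-S) and 3 (TTP-A against WT-A) genes of the 10 were called, where voom called 3003, 2346, 175 and 796 of all 15385. Fitting the compared groups alone called 3 between WT-A and WT-S, 4 between TTP-A and TTP-S, 1 between TTP-S and WT-S and 0 between TTP-A and WT-A, and the DESeq2 Wald test called 3 in the last. Replicate numbers showed no steady pairing of the libraries: same-number correlations ran from -0.32 to 0.24, and 0 to 3 of 8 libraries correlated best with their own number. With 4 libraries per group this check cannot exclude pairing. With the number as a block, 1 gene was called between TTP-A and TTP-S, Sox9, while Muc6 was not (1.85, edgeR adjusted p = 0.0526), 2 between TTP-A and WT-A and 0 for the difference of responses (Dmbt1 -2.01, edgeR adjusted p = 0.0711).

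Over all genes, the counts called that moved by over 1.5 times under settings that keep all groups whole, or drop WT-A 3 and WT-A 4 together, were 2891 for WT-A against WT-S (1620 with 14 libraries, 675 with compared groups alone), 446 for TTP-A against TTP-S (977 with 14 libraries, 852 with DESeq2, 2346 with voom, 1195 with compared groups alone), 5 for TTP-S against WT-S (57 with 14 libraries, 98 with DESeq2, 175 with voom, 60 with compared groups alone), 796 for TTP-A against WT-A (292 with 14 libraries, 1627 with DESeq2, 1 with compared groups alone) and 9 for the difference of responses (46 with 14 libraries, 256 with DESeq2, 171 with voom, 4 with block). Without 1 library these counts ran from 1254 (without WT-S 2) to 4977 (without WT-A 1) for WT-A against WT-S, from 60 (without TTP-A 1) to 937 (without TTP-A 2) for TTP-A against TTP-S, from 1 (in several fits) to 15 (without WT-S 2) for TTP-S against WT-S, from 86 (without WT-A 3) to 3202 (without WT-A 1) for TTP-A against WT-A and from 2 (in several fits) to 211 (without WT-A 1) for the difference of responses.

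Differences that were not called changed sign as follows. For TTP-S against WT-S, Gkn3 was 0.53 with voom and 0.12 with the block, and Cftr was -0.011 with DESeq2 and -0.00039 with the block. For TTP-A against WT-A, Tff2 was 0.24 with 14 libraries and 0.050 with voom, and Muc6 -0.050 with voom and -0.22 with the block. For the difference of responses, Tff2 was 0.14 with 14 libraries and Aqp5 -0.29 with voom. Without 1 library, signs changed within these ranges: WT-A against WT-S (Tff2 -0.21 to 0.084), TTP-A against TTP-S (Cftr -0.086 to 0.46, Wfdc2 -0.031 to 0.21), TTP-S against WT-S (Tff2 -0.0016 to 0.19, Gkn3 -0.42 to 0.47, Cftr -0.25 to 0.41, Clu -0.082 to 0.065, Cd44 -0.086 to 0.21), TTP-A against WT-A (Tff2 -0.19 to 0.11, Muc6 -0.46 to 0.31, Cd44 -0.30 to 0.057) and the difference of responses (Tff2 -0.29 to 0.0057, Aqp5 -0.15 to 1.24, Wfdc2 -0.21 to 0.031, Cd44 -0.39 to 0.027, Sox9 -0.12 to 0.015). Counts called ran from 2 to 8 (WT-A against WT-S), 0 to 3 (TTP-A against TTP-S), 0 to 2 (TTP-A against WT-A) and 0 to 1 (difference of responses), and stayed 0 for TTP-S against WT-S.

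Depth limits Cftr most, and leaving out a library leaves 3 in its group. The cause of these changes was not tested.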

Other observations

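Of the lists of other cell types, those not described above gave these counts between A and S. Of all genes, 9.8% were called higher in WT-A, and in TTP-A 1.55% higher and 1.35% lower. Mesenchymal genes were called higher for 4 of 7 in WT-A (Col1a1, Col1a2, Acta2 and Des) and for 1 of 7 in TTP-A (Pdgfra). Of the 4 intestinal genes tested, Apoa4 and Alpi were called higher in WT-A. Of the 7 squamous genes tested, Krt6a was called higher in WT-A (edgeR adjusted p = 0.0241), with 0 counts in 2 of the 16 libraries. The antral gene Pdx1 was called in no comparison. The pancreatic list had 1 gene tested, Cela1, which fell from TTP-S to TTP-A (-0.46, SE 0.11, edgeR adjusted p = 0.0352).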
